A study of Homo sapiens with 12 samples.

Results

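Cells given a mimic of miR-150 were compared with cells given a scrambled RNA, in 6 of the 12 RNA sequencing libraries of the study. All libraries came from the HMEC-1 line, human endothelial cells of the small vessels of the skin that were immortalised, and every group carries the changes that made the line. The miR-150 mimic group and the scrambled RNA group held 3 libraries each, numbered 2 to 4, and were chosen by the name of the RNA in the labels. Each RNA was transfected with a lipid reagent (Lipofectamine RNAiMAX) at 50 nM, and cells were collected after 48 h. The other 6 libraries, 3 with a miR-126 mimic and 3 with a miR-143 mimic, received the same reagent, dose and time, and serve here as a second reference that does not contain the scrambled RNA. No library of cells without any transfected RNA was analysed here. Nothing in the labels says that the libraries of a group are separate cultures, and p-values therefore rest on a spread between libraries that may be only technical.

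A microRNA is a short RNA that is loaded into an Argonaute protein and lowers messenger RNAs whose 3' UTR pairs with bases near its 5' end. A mimic is a synthetic duplex that adds such a microRNA to a cell far above its usual level, whereas a scrambled RNA has the same form with a sequence meant to pair with no transcript. miR-150 is best known from lymphocytes, where it holds down the transcription factor MYB, and in the mouse retina it has been reported to restrain abnormal vessels, with CXCR4, DLL4 and FZD4 among its reported targets. The comparison asks which transcripts of endothelial cells differ when miR-150 is raised.

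Values were TPM, an abundance per transcript length that sums to the same total in every library, added up per gene symbol. Read totals cannot be had from TPM, and depth per library is not known. The tested genes were the 13750 with at least 1 TPM in at least 3 of the 12 libraries. Genes at or above 1 TPM numbered 12299 to 13199 in the miR-150 mimic libraries and 12901 to 13218 in the scrambled RNA libraries. Of 15 endothelial markers, 15 had at least 1 TPM in all 6 libraries, among them PECAM1, CDH5, TEK and KDR. One library stood apart. In miR-150 mimic replicate 4 the deviation of a gene from its mean ran against transcript length with a Spearman rho of -0.55 across genes, while rho lay between 0.06 and 0.24 in the other 5 libraries. In that library ribosomal protein transcripts held 24.4% of TPM and mitochondrially encoded transcripts 1.35%, against 15.4% to 18.1% and 2.08% to 2.83% in the other 5. In 10 equal bins of transcript length, the longest genes (median 5986 bases) had a median deviation of -0.84 in it, and the shortest (median 594 bases) 0.12. Of the other mimic libraries, miR-143 mimic replicate 4, which belongs to the second reference, had a rho of -0.40. Counts against scrambled RNA, list medians and the main genes are given also without miR-150 mimic replicate 4, and the part of either library in other differences was not tested.

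**Figure D1:**
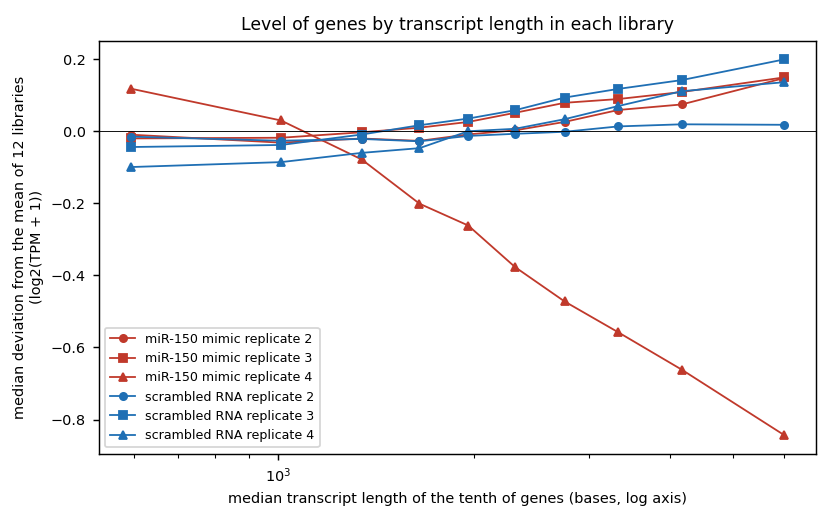
Median deviation of a gene's log2(TPM + 1) from its mean over 12 libraries (vertical axis) in 10 equal bins of transcript length (horizontal axis, bases, log scale), 1 line per library, with the miR-150 mimic in red and scrambled RNA in blue. The line of miR-150 mimic replicate 4 falls to -0.84 in the longest bin, and the other 5 lines end between 0.02 and 0.20.

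With the miR-150 mimic, 149 genes were higher (1.08% of those tested) and 307 were lower (2.23%) than with scrambled RNA at an adjusted p under 0.05 in limma's two-sided test. Of these, 47 were higher and 118 lower by at least 1 on the log2(TPM + 1) scale, a scale on which changes of low genes look smaller than they are. In all of the called genes the 3 libraries of a group did not overlap those of the other; without any test, such separation was found for 945 genes in the higher direction (6.87%) and 2008 in the lower direction (14.6%). The median log2 fold change over all tested genes was -0.11, and 0.017 without miR-150 mimic replicate 4. Without that library 200 genes were higher (1.45%) and 233 lower (1.69%), of which 120 and 220 were called with it. With miR-143 mimic replicate 4 left out too, 282 were higher and 305 lower. Median transcript length was 1642 bases for genes called higher, 2433 bases for genes called lower and 2127 bases for all tested genes. Scaling moved the split: centring each library on its median gene put the median of all genes at 0.020 and gave 245 higher and 337 lower, and quantile normalization gave 301 and 372. The count also moved with a single library, to 125 without scrambled RNA replicate 4, to 175 without scrambled RNA replicate 2, to 280 without miR-150 mimic replicate 2 and to 294 without scrambled RNA replicate 3. Calls kept in all 6 fits that left out 1 of these libraries numbered 53 higher and 69 lower.

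The deepest fall was that of ADIPOR2, a cell surface receptor of the fat-derived hormone adiponectin (GRCh38, chromosome 12, 1688574 to 1788678, plus strand). ADIPOR2 measured 16.5, 22.5 and 10.9 TPM with the miR-150 mimic, against 74.5, 81.0 and 81.3 TPM with scrambled RNA. The groups lay far apart, and miR-150 mimic replicate 4 was the lowest of the 6. The log2 fold change was -2.23 (SE 0.197, adjusted p = 0.000293 in limma), -1.98 without that library. Means with the miR-126 and miR-143 mimics were 72.5 and 76.8 TPM, close to scrambled RNA, and the log2 fold change against these mimics was -2.15 (adjusted p = 0.000179 in limma). Both annotated transcripts of ADIPOR2 with at least 1 TPM in scrambled RNA were lower, the leading one (ENST00000357103.4) at a mean of 7.71 TPM against 38.5 TPM. That transcript held 48.8% of the gene's TPM in scrambled RNA. The symbol ADIPOR2 sums 2 Ensembl genes, and the position given is that of ENSG00000006831.

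KCTD20, SMARCD2, MPZL1, LRRC57 and COL13A1 also had a low level with the miR-150 mimic and a higher level in each of the other 3 groups. COL13A1 averaged 33.6 and 35.1 TPM with the miR-126 and miR-143 mimics, below its 51.1 TPM with scrambled RNA. LRRC57 averaged 39.5 and 25.3 TPM with these mimics and 41.3 TPM with scrambled RNA. SMARCD2, a subunit of SWI/SNF chromatin remodelling complexes (chromosome 17, 63832081 to 63843065, minus strand), measured 17.4, 23.1 and 11.6 TPM with the miR-150 mimic, against 70.3, 72.7 and 63.5 TPM with scrambled RNA. Its log2 fold change was -1.98 (SE 0.195, adjusted p = 0.000350) against scrambled RNA and -1.79 (adjusted p = 0.000353) against the other mimics in limma, and without miR-150 mimic replicate 4 it was -1.73 against scrambled RNA. KCTD20 (chromosome 6, 36442767 to 36491143, plus strand) measured 17.6, 22.9 and 7.63 TPM, against 58.2, 66.1 and 68.6 TPM with scrambled RNA. In KCTD20 the library that favours short transcripts was well below the other 2 of its group, and the log2 fold change was -2.06, or -1.63 without it. MPZL1, a cell surface glycoprotein (chromosome 1, 167721192 to 167791919, plus strand), measured 62.6, 73.4 and 32.2 TPM with the mimic, against 174, 201 and 189 TPM. COL13A1, a collagen that spans the cell membrane (chromosome 10, 69801867 to 69964275, plus strand), measured 12.8, 17.5 and 13.3 TPM, against 52.3, 43.7 and 57.2 TPM. LRRC57 (chromosome 15, 42537820 to 42548802, minus strand) measured 14.2, 14.2 and 7.19 TPM, against 37.3, 41.9 and 44.6 TPM, and 10.9% of its exon bases overlap other genes. The groups did not overlap in any of these genes, and the log2 fold changes of MPZL1, LRRC57 and COL13A1 were -1.80, -1.77 and -1.75, or -1.45, -1.47 and -1.70 without miR-150 mimic replicate 4. Against the other mimics they were -1.54, -1.39 and -1.20 (adjusted p = 0.00365, 0.00365 and 0.000527 in limma).

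MMP14, ADAM19, PLOD2 and LTBP2 fell as deeply against scrambled RNA but were also low with the miR-126 mimic. With the miR-143 mimic these genes were lower than with scrambled RNA as well. MMP14, a metalloproteinase anchored in the cell membrane that cleaves collagen (chromosome 14, 22836557 to 22849027, plus strand), measured 75.5, 101 and 63.2 TPM with the miR-150 mimic, against 304, 311 and 327 TPM with scrambled RNA. Its log2 fold change was -1.99 (SE 0.165, adjusted p = 0.000269 in limma), and -1.83 without miR-150 mimic replicate 4. The mean of MMP14 was 78.2 TPM with the miR-126 mimic and 159 TPM with the miR-143 mimic, and the difference from these mimics did not pass (-0.49, adjusted p = 0.0899 in limma). The shedding protease ADAM19 (chromosome 5, 157395534 to 157575775, minus strand) measured 13.4, 10.3 and 7.34 TPM, against 41.5, 33.5 and 48.9 TPM with scrambled RNA and means of 9.53 and 20.3 TPM with the miR-126 and miR-143 mimics. PLOD2, which hydroxylates lysines of collagen (chromosome 3, 146069440 to 146163653, minus strand), measured 104, 109 and 60.2 TPM, against 286, 294 and 340 TPM with scrambled RNA. LTBP2, a matrix protein of the family that binds latent TGF-beta (chromosome 14, 74498170 to 74612378, minus strand), measured 11.4, 11.8 and 6.08 TPM, against 37.0, 24.4 and 46.3 TPM. With the miR-126 and miR-143 mimics, means were 90.0 and 186 TPM for PLOD2 and 12.4 and 15.4 TPM for LTBP2. Differences of ADAM19, PLOD2 and LTBP2 from the other mimics did not pass in limma (-0.43, -0.54 and -0.49; adjusted p = 0.247, 0.162 and 0.361). Against scrambled RNA, without miR-150 mimic replicate 4, log2 fold changes were -1.71 for ADAM19, -1.51 for PLOD2 and -1.50 for LTBP2. LTBP2 missed the threshold against scrambled RNA without scrambled RNA replicate 4.

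The remaining genes among the 12 largest falls lay between these patterns. LRRC17 (chromosome 7, 102912991 to 102944949, plus strand) measured 2.08, 2.37 and 2.02 TPM with the miR-150 mimic, against 12.9, 8.62 and 15.0 TPM with scrambled RNA, and its mean was 4.30 TPM with miR-126 and 6.35 TPM with miR-143. The log2 fold change of LRRC17 was -2.03 against scrambled RNA (-2.00 without miR-150 mimic replicate 4) and -0.98 (adjusted p = 0.0181 in limma) against the other mimics. F2R, the thrombin receptor of endothelium and platelets (chromosome 5, 76716043 to 76735781, plus strand), measured 17.6, 11.9 and 11.7 TPM, against 57.7, 32.5 and 67.1 TPM. Its fall of -1.82 (adjusted p = 0.0238 in limma) held in 2 of 6 fits without 1 library, those without miR-150 mimic replicate 2 or scrambled RNA replicate 3. The adjusted p in limma was 0.0597 without miR-150 mimic replicate 4. F2R averaged 31.4 and 31.3 TPM with miR-126 and miR-143, and its difference from them did not pass (-1.08, adjusted p = 0.101 in limma). Replicate 3 was the lowest with scrambled RNA, miR-126 and miR-143 (32.5, 19.4 and 16.9 TPM). Of the 12 falls, 7 passed the threshold against the other mimics, a threshold that 2.63% of tested genes passed in the lower direction and 0.465% in the higher. That contrast held 64 genes higher and 362 lower, 82 and 221 without miR-150 mimic replicate 4, and 104 and 262 with miR-143 mimic replicate 4 left out too. Both contrasts use the same 3 miR-150 mimic libraries, so their calls are not independent. miR-150 mimic replicate 4 was the lowest of its group in 11 of the 12 genes. Without it 11 of the 12 passed against scrambled RNA, all but F2R.

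**Figure D2:**
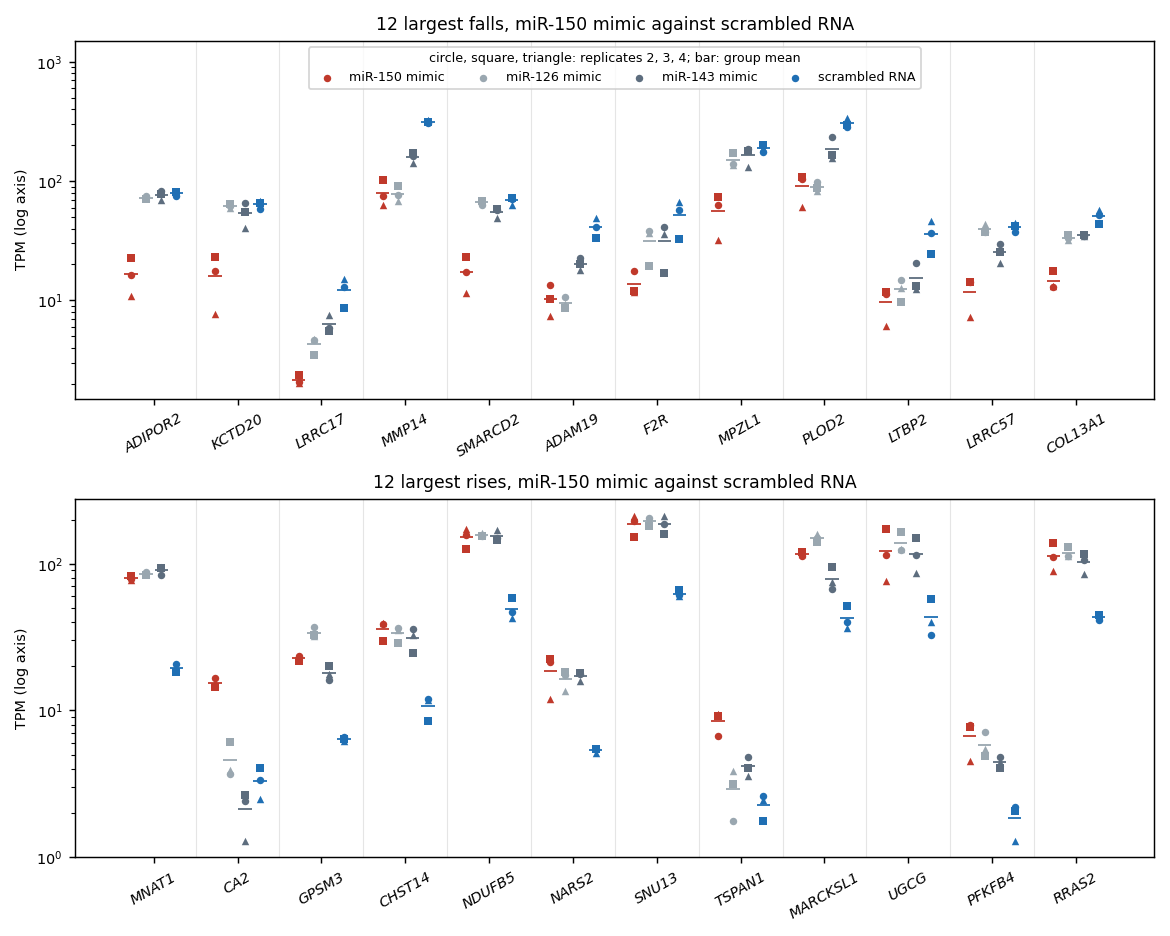
TPM (vertical axis, log scale) of the 12 largest falls (upper panel) and 12 largest rises (lower panel) in each library of the miR-150, miR-126 and miR-143 mimics and of scrambled RNA, with a bar at each group mean. ADIPOR2 is low only among the 3 miR-150 mimic libraries (10.9 to 22.5 TPM), whereas MNAT1 is low only among the 3 scrambled RNA libraries (18.3 to 20.7 TPM).

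Among the rises, CA2 and TSPAN1 were high with the miR-150 mimic alone of the 4 groups. CA2, the cytosolic enzyme carbonic anhydrase, measured 16.7, 14.4 and 15.3 TPM with the miR-150 mimic, against 3.38, 4.08 and 2.50 TPM with scrambled RNA, and its mean was 4.58 TPM with miR-126 and 2.13 TPM with miR-143. Its log2 fold change was 1.94 (SE 0.239, adjusted p = 0.00117) against scrambled RNA and 2.00 (adjusted p = 0.000525) against the other mimics in limma. TSPAN1, a membrane protein of the tetraspanin family (chromosome 1, 46175073 to 46185958, plus strand), measured 6.75, 9.19 and 9.45 TPM with the miR-150 mimic, against 2.62, 1.77 and 2.44 TPM with scrambled RNA. Its log2 fold change was 1.53 against scrambled RNA and 1.08 (adjusted p = 0.0169 in limma) against the other mimics. In both genes the 3 miR-150 mimic libraries lay above all the others, and without replicate 4 the log2 fold changes against scrambled RNA were 1.95 for CA2 and 1.45 for TSPAN1.

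The other 10 of the 12 largest rises were low with scrambled RNA and higher with each of the 3 mimics, and no difference between miR-150 and the other mimics passed. MNAT1, a subunit of the kinase complex that activates cyclin-dependent kinases (chromosome 14, 60734742 to 60969953, plus strand), measured 78.1, 82.5 and 77.9 TPM with the miR-150 mimic, against 20.7, 18.3 and 19.8 TPM with scrambled RNA, and averaged 85.7 TPM with miR-126 and 90.9 TPM with miR-143. The log2 fold change of MNAT1 was 1.97 (SE 0.0985, adjusted p = 4.41e-06) against scrambled RNA and -0.15 (adjusted p = 0.400) against the other mimics in limma. SNU13, a protein of the spliceosome (chromosome 22, 41673930 to 41690504, minus strand), measured 194, 151 and 213 TPM, against 61.0, 66.0 and 60.6 TPM with scrambled RNA, with means of 195 and 185 TPM for the miR-126 and miR-143 mimics. The same order of levels was seen in GPSM3 (a modulator of G protein signalling, 1.69), CHST14 (a dermatan sulfotransferase, 1.66), NDUFB5 (a subunit of respiratory complex I, 1.60) and NARS2 (the mitochondrial asparaginyl-tRNA synthetase, 1.58), where the value is the log2 fold change against scrambled RNA. It was also seen in MARCKSL1 (an actin-binding protein, 1.44), UGCG (glucosylceramide synthase, 1.42), PFKFB4 (a regulator of glycolysis, 1.42) and RRAS2 (a small GTPase, 1.35). Without miR-150 mimic replicate 4 the log2 fold changes of these 10 genes against scrambled RNA lay between 1.44 and 1.98. Against the other mimics, with all libraries, they lay between -0.15 and 0.32. UGCG passed in 2 of 6 fits without 1 library, those without miR-150 mimic replicate 4 or scrambled RNA replicate 3, and PFKFB4 missed the threshold without scrambled RNA replicate 4. The symbol GPSM3 sums 7 Ensembl genes and overlaps NOTCH4, so its value is uncertain.

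Of these 12 rises, 8 carry GGTTGTG, a run of 7 bases, in the annotated 3' UTR. The 7-mer was singled out in an earlier scan of these same libraries, so its share among the rises restates that choice. The sites below are shown because the genes with the largest rises share them; each is written 5' to 3' on the transcript's strand from GENCODE release 29 (GRCh38), with the 7-mer in capitals.
MNAT1, chr14:60968617-60968641, plus strand: tgtgtttgaGGTTGTGacagactta
CHST14, chr15:40473013-40473037, plus strand: ggcctttgaGGTTGTGactgtggct
NARS2, chr11:78436507-78436531, minus strand: aatataagtGGTTGTGattttctta
SNU13, chr22:41674873-41674897, minus strand: cccccctgaGGTTGTGtatcatatt
RRAS2, chr11:14278990-14279014, minus strand: gaagctacaGGTTGTGaaataattt
Among tested genes with an annotated 3' UTR, 1279 of 12486 (10.2%) hold the 7-mer on the transcript's strand. It was held by 57 of 148 genes called higher (38.5%) and by 17 of 303 called lower (5.61%). Against the other mimics, a contrast in which the scrambled RNA libraries give no mean but do enter the estimate of spread, it was held by 6 of 61 genes called higher (9.84%) and 30 of 358 called lower (8.38%). Over all genes with the 7-mer the median log2 fold change against scrambled RNA was -0.03, and over genes without it -0.12.

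**Figure D3:**
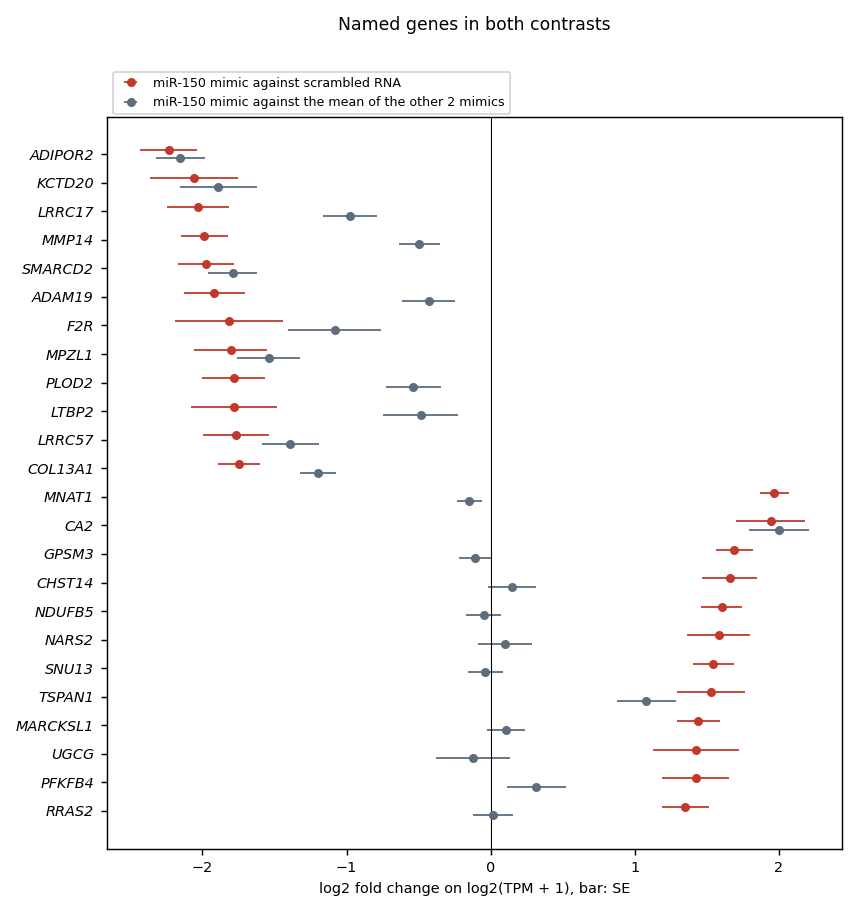
Log2 fold change with its SE (horizontal axis, log2(TPM + 1) scale) of the 12 largest falls and 12 largest rises for the miR-150 mimic against scrambled RNA (red) and against the mean of the miR-126 and miR-143 mimics (grey). ADIPOR2 lies at -2.23 and -2.15 in these contrasts and CA2 at 1.94 and 2.00, while MNAT1 lies at 1.97 and -0.15.

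Of the genes listed as reported targets of miR-150, 23 were tested, and 5 fell and 0 rose (21.7% lower, against 2.23% of all tested genes), with a median log2 fold change of -0.44 against -0.11 over all genes. This list and those below were chosen with earlier results of these data known, so their shares are description and not a test. Without miR-150 mimic replicate 4 the list again had 5 falls, with a median of -0.23 against 0.017; without scrambled RNA replicate 4 it had 3. The 5 were ADIPOR2, MMP14, ADAM19, HMGA2 and PDCD4. HMGA2, a chromatin protein of growing and transformed cells (chromosome 12, 65824131 to 65966295, plus strand), measured 22.9, 23.9 and 12.4 TPM with the miR-150 mimic, against 48.2, 54.9 and 63.9 TPM with scrambled RNA (log2 fold change -1.50, adjusted p = 0.00676 in limma). It was as low with miR-143 (mean 16.2 TPM), its log2 fold change was -1.21 without miR-150 mimic replicate 4, and its call was lost without scrambled RNA replicate 4. PDCD4, an inhibitor of translation, had a log2 fold change of -0.71 (adjusted p = 0.0211 in limma), and missed the threshold without miR-150 mimic replicate 2 or scrambled RNA replicate 2 or 4. Of the 23, ADIPOR2 was the gene that passed against the other mimics.

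CXCR4, FZD4, DLL4, VEGFA, NOTCH3 and ZEB1, reported as targets in vessels or other cells, did not pass. CXCR4, the receptor of the chemokine CXCL12, measured 4.37, 2.67 and 3.58 TPM with the miR-150 mimic, against 4.57, 5.06 and 4.91 TPM with scrambled RNA (log2 fold change -0.38, SE 0.227, adjusted p = 0.430 in limma). Its 3 mimic libraries lay below the scrambled RNA libraries, the nearest by a small margin. FZD4, the receptor of Norrin and WNT proteins in retinal vessels, measured 69.5, 46.6 and 43.7 TPM, against 29.2, 26.8 and 37.2 TPM with scrambled RNA. That is the opposite side from a fall (0.74, adjusted p = 0.127 in limma), and 18.9% of its exon bases overlap PRSS23. FZD4 averaged 60.5 and 52.3 TPM with miR-126 and miR-143, and its difference from these mimics did not pass (-0.08, adjusted p = 0.873 in limma). Its annotated 3' UTR holds the 7-mer GGTTGTG. DLL4, the NOTCH ligand of sprouting vessels, measured 0.677, 5.18 and 7.77 TPM, against 5.18, 5.20 and 4.98 TPM. The mimic libraries of DLL4 lay on both sides of the scrambled RNA libraries, and the log2 fold change was -0.45 (SE 0.477), or 0.27 without miR-150 mimic replicate 2. VEGFA, the main endothelial growth factor, had a log2 fold change of -0.65 (adjusted p = 0.407), or -0.25 without miR-150 mimic replicate 4, and NOTCH3 one of -0.73 (adjusted p = 0.233), or -0.76 without it, in limma. For ZEB1, a repressor of epithelial genes, it was -1.03 (adjusted p = 0.259 in limma) and -0.41 without miR-150 mimic replicate 4, where ZEB1 measured 8.16 TPM against 28.3 and 35.8 TPM in the other 2 mimic libraries. MYB, the classic target in lymphocytes, was too low to be tested, at 0.202 ± 0.046 TPM with the miR-150 mimic and 0.908 ± 0.586 TPM with scrambled RNA (SD, n = 3 each).

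**Figure D4:**
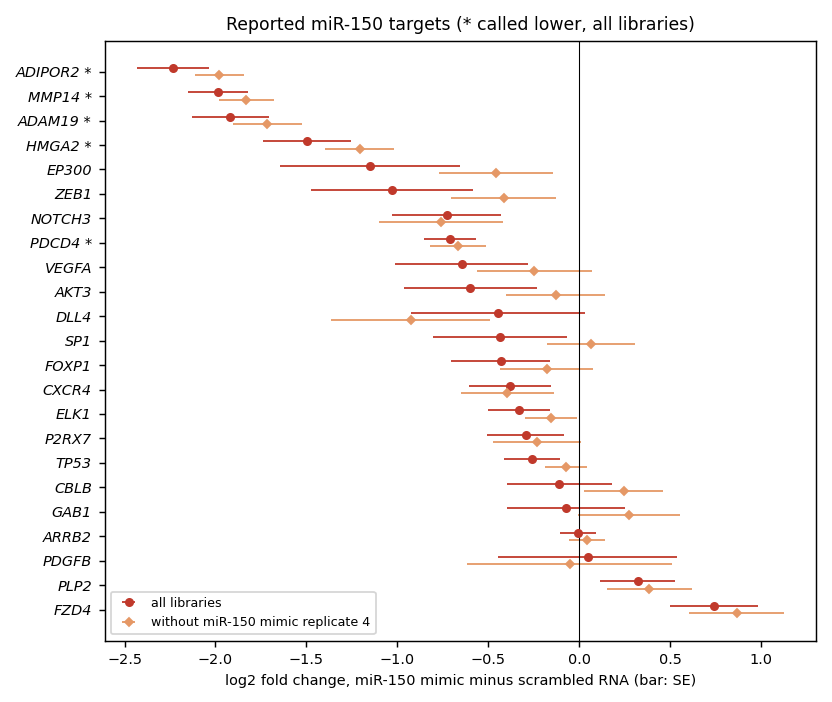
Log2 fold change with its SE (horizontal axis) of the 23 tested genes listed as reported miR-150 targets, miR-150 mimic minus scrambled RNA, with all libraries (red circles) and without miR-150 mimic replicate 4 (orange diamonds); a star marks a gene called lower with all libraries. ADIPOR2, MMP14 and ADAM19 lie at -2.23, -1.99 and -1.92, and FZD4 lies at 0.74.

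Enzymes that modify and cross-link collagen held the largest share of falls among the lists with more than 4 tested genes. Collagen chains are hydroxylated and given sugars in the endoplasmic reticulum and are cross-linked outside the cell, and endothelium uses them in its basement membrane. Of 25 tested members, 7 fell and 0 rose (28.0% lower, against 2.23% of all tested genes). A log2 fold change below 0 was found in 23 of them, and in 8691 of all 13750 tested genes. The list's median was -0.46, against -0.11 over all genes. Without miR-150 mimic replicate 4 the list again had 7 falls, with a median of -0.33 against 0.017; without scrambled RNA replicate 2 or 4 it had 4. Beside PLOD2 these were COLGALT1, LOXL1 and PLOD1, and with smaller changes P3H1, P3H3 and SERPINH1. PLOD1, a lysyl hydroxylase (chromosome 1, 11934205 to 11975538, plus strand), measured 82.7, 96.3 and 82.2 TPM with the miR-150 mimic, against 180.4, 179.6 and 187 TPM with scrambled RNA. Its log2 fold change was -1.06 (SE 0.0909, adjusted p = 0.000293) against scrambled RNA and -0.88 (adjusted p = 0.000330) against the other mimics in limma. COLGALT1, which adds galactose to hydroxylysine (chromosome 19, 17555594 to 17583162, plus strand), measured 94.7, 92.9 and 78.7 TPM, against 190.0, 175.9 and 207 TPM. It was lower still with miR-126 (mean 47.5 TPM), and its difference from the other mimics did not pass. Both PLOD1 and COLGALT1 had a log2 fold change of -1.02 against scrambled RNA without miR-150 mimic replicate 4. LOXL1, an oxidase that cross-links elastin and collagen, had a log2 fold change of -1.08 (adjusted p = 0.00846 in limma) and missed the threshold without scrambled RNA replicate 2 or 4. Against the other mimics 3 of the 25 were lower, namely PLOD1, P3H3 and SERPINH1 (-0.88, -0.46 and -0.34).

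Of 29 matrix proteins, 3 fell and 0 rose (10.3% lower, against 2.23% of all tested genes), with a median of -0.46. In the fit without miR-150 mimic replicate 4, 1 of them fell and the median was -0.36. TGFBI, a secreted matrix protein that TGF-beta induces (chromosome 5, 136028895 to 136063818, plus strand), measured 221, 267 and 271 TPM with the miR-150 mimic, against 502, 532 and 517 TPM with scrambled RNA. Its log2 fold change was -1.03, and -1.09 without that library. Fibronectin (FN1) and SPARC, with log2 fold changes of -0.67 each (adjusted p = 0.0263 and 0.0342 in limma), missed the threshold without it (adjusted p = 0.0641 and 0.0833), and also without scrambled RNA replicate 2 or 4. Against the other mimics SPARC was lower (-0.62, adjusted p = 0.0256 in limma), while TGFBI and FN1 did not pass (-0.25 and -0.21, adjusted p = 0.135 and 0.412). TGFBI averaged 253 TPM with miR-150, 258 TPM with miR-126 and 351 TPM with miR-143. The matrix metalloproteases and their inhibitors had 3 falls among 23 (MMP14, ADAM19 and ADAMTS18) and 0 rises (13.0% lower, against 2.23%), with a median of -0.37, or -0.18 with 2 falls without miR-150 mimic replicate 4. ADAMTS18 missed the threshold without miR-150 mimic replicate 4 (adjusted p = 0.0905 in limma) or 3, or scrambled RNA replicate 2 or 4. Its difference from the other mimics did not pass (0.42, adjusted p = 0.395 in limma). Among 30 TGF-beta and mesenchymal genes (median -0.43, or -0.28 without miR-150 mimic replicate 4), LTBP2, the TGF-beta co-receptor endoglin (ENG, -0.56) and N-cadherin (CDH2, -1.58) fell, and CDH2 held in 1 of 6 fits without 1 library, that without miR-150 mimic replicate 3. The difference of CDH2 from the other mimics did not pass (-0.56, adjusted p = 0.412 in limma). Of 29 integrins and focal adhesion genes 1 fell, the caveolin CAV2 (-1.02), and the list's median was -0.34, or -0.19 without miR-150 mimic replicate 4. CAV2 was also lower than with the other mimics (-0.78, adjusted p = 0.0139 in limma).

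Markers of fibroblasts and pericytes, which also make matrix, were low, and their summed level lay lower with the mimic. This sum over 9 genes was 51.6, 43.7 and 39.9 TPM with the miR-150 mimic, against 119, 54.0 and 135 TPM with scrambled RNA. Of these 9, 3 (PDGFRA, DCN and LUM) were under 1 TPM in all 6 libraries, and none of the 6 tested was called, with a median of -0.47, or -0.26 without miR-150 mimic replicate 4. COL1A2 measured 16.4, 3.55 and 18.0 TPM with the mimic, against 64.9, 8.65 and 80.1 TPM, and scrambled RNA replicate 3 was within the range of the mimic libraries. Replicate 3 was the lowest of both groups, and each mimic library lay below the scrambled RNA library of the same number. In bulk RNA, fewer cells of a type and less RNA per cell cannot be told apart, and the part of these markers in the matrix results was not tested. Summed endothelial markers were 3131, 2165 and 2540 TPM with the miR-150 mimic, against 3038, 2443 and 3357 TPM, and overlapped.

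**Figure D5:**
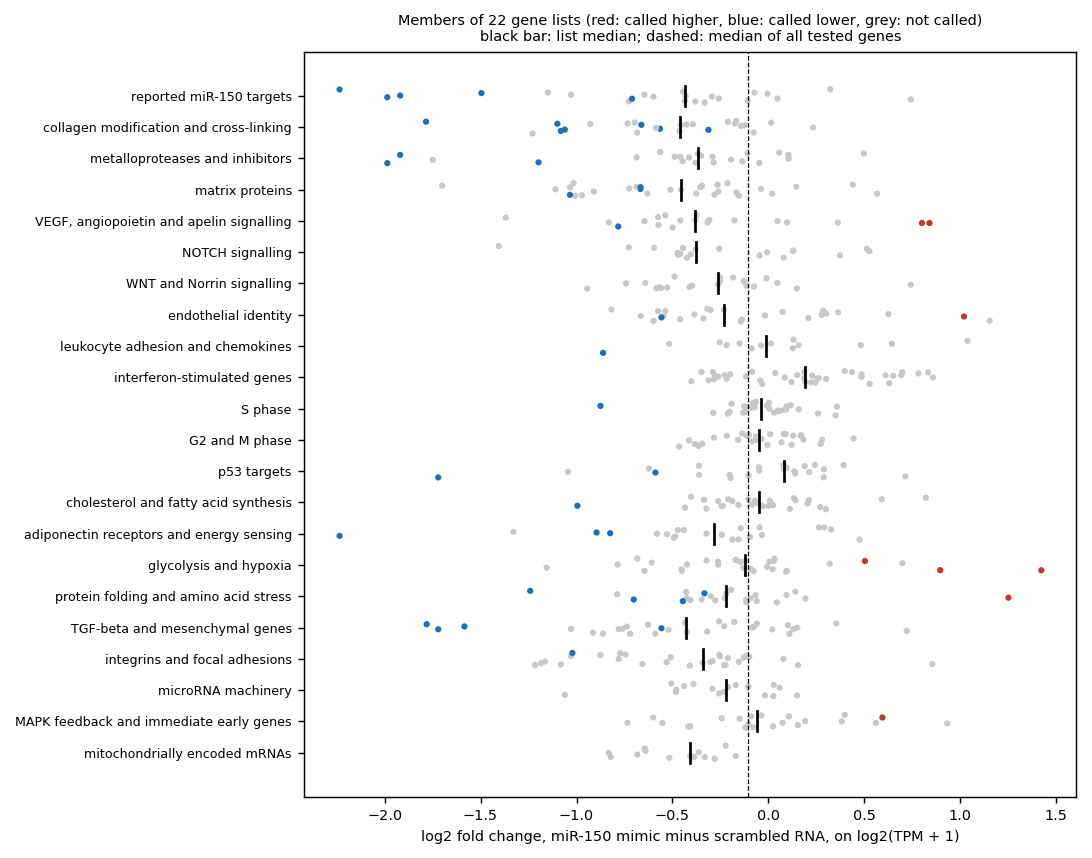
Log2 fold change, miR-150 mimic minus scrambled RNA (horizontal axis, log2(TPM + 1) scale), of the tested members of 22 gene lists, 1 point per gene, with genes called higher in red, called lower in blue and not called in grey. Black bars mark list medians and the dashed line the median of all tested genes (-0.11); the list of collagen-modifying enzymes has 7 blue points, and the NOTCH, WNT and interferon lists have none of either colour.

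VEGF drives sprouting, angiopoietins settle vessels, and apelin is made by the leading tip cells of a sprout. Of 19 genes of these pathways, 2 rose and 1 fell (10.5% higher and 5.26% lower, against 1.08% and 2.23% of all tested genes), with a median of -0.38. The same counts were found without miR-150 mimic replicate 4, with a median of -0.25. Without scrambled RNA replicate 2 or 4, APLN alone of the list passed. APLN, which encodes apelin, measured 201, 188 and 208 TPM with the miR-150 mimic, against 96.2, 127 and 121 TPM with scrambled RNA (log2 fold change 0.80, adjusted p = 0.00582 in limma). ESM1, a proteoglycan of tip cells, rose by 0.84 on the log2 scale, and the growth factor PDGFA fell by 0.78. PDGFA also missed the threshold without miR-150 mimic replicate 2. None of these differed from the other mimics at the threshold, and APLN averaged 272 TPM with miR-126 and 186 TPM with miR-143. Of 19 NOTCH genes 0 rose and 0 fell (median -0.38, or -0.071 without miR-150 mimic replicate 4), and of 21 WNT and Norrin genes 0 rose and 0 fell (median -0.26, or -0.11 without it). Of 25 endothelial identity genes 1 rose and 1 fell (median -0.23, or -0.18 without it). S1PR1, the receptor of sphingosine phosphate that stabilises vessels, measured 125, 112 and 77.2 TPM with the miR-150 mimic, against 45.8, 56.0 and 49.1 TPM with scrambled RNA (1.02, adjusted p = 0.00846 in limma), and averaged 134 and 152 TPM with miR-126 and miR-143. S1PR1 missed the threshold without scrambled RNA replicate 2 or 4. The gene that fell was ENG, which measured 273, 272 and 225 TPM, against 383, 372 and 374 TPM, and was also lower than with the other mimics (-0.41, adjusted p = 0.0166 in limma). Among 14 genes of leukocyte adhesion and chemokines, the chemokine CCL2 fell (-0.86, adjusted p = 0.0226 in limma), and this held in 2 of 6 fits without 1 library, those without miR-150 mimic replicate 3 or 4.

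Of 40 interferon-stimulated genes, which a cell turns on when it senses foreign RNA, 0 were called, against 1.08% higher and 2.23% lower of all tested genes. The median log2 fold change of these 40 genes was 0.19. Their mean log2 level was 3.78, 5.76 and 3.39 in the miR-150 mimic libraries, against 3.53, 5.43 and 3.40 with scrambled RNA. The level was high in replicate 3 of both groups, and the groups overlapped. Without miR-150 mimic replicate 4 the list's median was 0.60, again with 0 calls. In that fit the high replicate 3 is a larger share of the miR-150 mimic libraries than of the scrambled RNA libraries. Against the other mimics, with all libraries, the list's median was -1.45, with 0 calls.

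Of 22 genes of adiponectin receptors and energy sensing, 3 fell (13.6%, against 2.23% of all tested genes; median -0.28, or -0.077 with 2 falls without miR-150 mimic replicate 4), namely ADIPOR2 and the lipid-sensing nuclear receptors PPARA (-0.90) and PPARG (-0.82). PPARG measured 22.3, 29.9 and 24.4 TPM with the miR-150 mimic, against 40.9, 50.5 and 46.0 TPM with scrambled RNA, and was also lower than with the other mimics (-0.58, adjusted p = 0.0301 in limma). PPARA missed the threshold without miR-150 mimic replicate 4 (adjusted p = 0.0994 in limma) and held in 1 of 6 fits without 1 library, that without miR-150 mimic replicate 3; PPARG missed it without scrambled RNA replicate 4. Of 30 genes of glycolysis and hypoxia 3 rose and 0 fell (against 1.08% higher and 2.23% lower of all tested genes): PFKFB4, the phosphofructokinase PFKL (0.90) and the lactate dehydrogenase LDHA (0.50, adjusted p = 0.0485 in limma, held in 1 of 6 fits, that without miR-150 mimic replicate 4). PFKL averaged 88.5 TPM with miR-150, and 92.3 and 96.6 TPM with miR-126 and miR-143. Differences of PFKL and LDHA from the other mimics did not pass (-0.094 and 0.091, adjusted p = 0.640 and 0.695 in limma). Against those mimics 0 genes of this list were higher and 2 lower. PFKFB4, PFKL and LDHA each hold the 7-mer above. The median of this list against scrambled RNA was -0.12. It was 0.025 without miR-150 mimic replicate 4, or 0.0037 with each library centred on its median gene. Of 24 genes of protein folding and amino acid stress, 4 fell and 1 rose (16.7% lower and 4.17% higher, against 2.23% and 1.08%), with a median of -0.22, or -0.080 with 3 falls and 1 rise without miR-150 mimic replicate 4. HSP90B1, the HSP90 of the endoplasmic reticulum, measured 627, 669 and 673 TPM with the miR-150 mimic, against 1129, 1003 and 1074 TPM with scrambled RNA (-0.70, adjusted p = 0.000914 in limma), and was also lower than with the other mimics (-0.62). EDEM1 (-1.24), PDIA4 (-0.45) and CALR (-0.33) were the others that fell, while the chaperone CANX, which holds the 7-mer above, rose by 1.25 on the log2 scale and kept its call in 1 of 6 fits, that without miR-150 mimic replicate 4. CANX averaged 439 TPM with miR-150, 599 and 526 TPM with miR-126 and miR-143 and 176 TPM with scrambled RNA. Without scrambled RNA replicate 2 or 4, HSP90B1 alone of the list passed.

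For the counts that follow, 2.23% of all tested genes were called lower and 1.08% higher. Of 28 S phase genes 1 fell (3.57%), the replication factor GINS1 (-0.88, adjusted p = 0.0173 in limma), and the list's median was -0.04. Of 28 G2 and M phase genes 0 were called (median -0.05). These medians were 0.0057, with 2 falls, and 0.10, with 1 rise, without miR-150 mimic replicate 4. GINS1 missed the threshold without scrambled RNA replicate 2 or 4. Among 24 p53 targets (median 0.08) BTG2 fell (-0.59), and this held in 1 of 6 fits, that without miR-150 mimic replicate 3. Of 22 genes of MAPK feedback and immediate early response, IER2 rose (0.59; median -0.06), held in the same fit alone, and has 30.8% of its exon bases under another gene. None of 18 genes of the microRNA machinery was called (median -0.22, and 0.050 without miR-150 mimic replicate 4). The 13 mitochondrially encoded mRNAs had 0 calls, with 13 log2 fold changes below 0, against 8691 of 13750 over all tested genes. The list's median was -0.41, or -0.12 without miR-150 mimic replicate 4. Among markers of other cell types, KRT18, a keratin also made by cultured endothelium, rose among 4 tested epithelial markers (0.90; 853, 907 and 978 TPM with the mimic, against 457, 599 and 421 TPM), and 16.3% of its exon bases overlap KRT8. PDPN fell among 4 lymphatic markers (-0.63, adjusted p = 0.0129 in limma) but was higher than with the other mimics (0.46, adjusted p = 0.0333 in limma), and its fall was lost without scrambled RNA replicate 2 or 4. Of 2 tested leukocyte markers 0 were called, with a median of 0.02. Without miR-150 mimic replicate 3, falls numbered 3 among the integrins and focal adhesion genes, 2 among the mitochondrial mRNAs, and 1 each in the WNT and microRNA machinery lists. In that fit 405 of all 13750 tested genes were lower.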

How the data were processed

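RNA sequencing libraries of HMEC-1 cells were analysed from a deposited table of TPM for 187626 transcripts in 12 columns, 1 per library; 0 columns lacked a sample. The authors made the TPM with kallisto, and FastQC, sleuth and GRCh38 (hg38) are also named, per the submitters' processing notes; their versions and the annotation of transcripts are not given here. The labels' protocol speaks of miRNA libraries, while the table lists annotated transcripts of genes. TPM divide by transcript length and library total, so any abundant transcript that changes shifts the rest, bias by transcript length stays in the values, and read depth is lost.

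TPM were summed per gene symbol, leaving out 171 transcripts without a gene (36433 symbols; 677 tested symbols cover more than 1 Ensembl gene). A linear model of the group alone was fitted to log2(TPM + 1) of 13750 genes in all 12 libraries with limma 3.58.1 in R 4.3.3 (mean-variance trend, 8 residual degrees of freedom, two-sided, Benjamini-Hochberg over all tested genes, threshold 0.05). The fit was checked on simulated data with independent noise in each library. That check did not cover bias by transcript length or an effect shared by replicate number. Contrasts were the miR-150 mimic minus scrambled RNA, and minus the mean of the other 2 mimics. Gene positions, transcript lengths and UTR sequences were read from GENCODE release 29 (GRCh38), which held 90.55% of the transcripts by identifier.

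Members and 26 gene lists were chosen with earlier results of these data known, and lists were described by counts and medians alone. Named genes were the 12 largest called rises and falls whose groups do not overlap, up to 4 called members of each list, and 9 reported targets called or not; PDCD4, P3H1, P3H3, SERPINH1 and CALR were added after their values were seen. Same-numbered libraries had residual correlations across genes of 0.07, 0.60 and 0.07 (numbers 2, 3 and 4), and the model did not pair them by number. These correlations cannot show that the numbers share no effect. With a replicate block the median residual SD was 0.195, against 0.274 without it. A comparison by seed sites of miR-150 was designed but not run. Some members of these lists are not reported here.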

Additional observations from a re-analysis of the deposited data

How the results depend on the processing

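Against scrambled RNA (456 calls), other pseudocounts (0.1 and 5), other filters on low values, median centring, quantile normalization and leaving out both libraries that favour short transcripts gave 376 to 673 calls. The count was 57 with only the 6 libraries of both groups, 926 with the trend on transcript length removed and 3159 with library weights; leaving out 1 library in turn gave 125 to 553. Against the other mimics (426 calls) it was 806 with the length trend removed, 2650 with weights and 185 to 491 without 1 library; with only 6 libraries that contrast has no value. A replicate block in the model raised the counts to 1694 and 1943. Replicate 3 of the miR-150 mimic correlated best with scrambled RNA replicate 3 (0.60). By contrast, miR-150 mimic replicate 4 correlated best with scrambled RNA replicate 2 (0.41), not with its own number. The cause was not tested in any of these.

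Of 55 named genes called, 35 lost the call with only 6 libraries, 11 without a filter, 7 with median centring, 7 without both libraries that favour short transcripts, 5 with the length trend removed and 6 to 25 without 1 library; none changed direction under any setting. Of the 6 named genes not called, 3 passed under the block, 3 with weights and 1 with the length trend removed. DLL4 (-0.45) ran from -0.93 without miR-150 mimic replicate 4 to 0.27 without replicate 2, where its direction reversed. The comparison by seed sites and its alternatives were not run. Depth is unknown, so low genes are limited by the spread between libraries alone.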

Other observations

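Set against the other mimics alone, further genes were low with miR-150 that the contrast with scrambled RNA ranks lower. These genes were chosen after their values were seen. HNRNPH2, an RNA-binding protein of splicing, measured 33.1, 41.5 and 24.7 TPM with the miR-150 mimic, against means of 96.5 and 114.6 TPM with miR-126 and miR-143 and 102 TPM with scrambled RNA (log2 fold change -1.67 against the other mimics, adjusted p = 0.000190 in limma). RCAN1, an inhibitor of calcineurin, measured 8.75, 13.3 and 7.67 TPM, against means of 40.6 and 33.7 TPM with these mimics; with scrambled RNA it averaged 16.8 TPM, and that difference did not pass (-0.72, adjusted p = 0.0826 in limma). FAM3C measured 18.1, 21.9 and 13.2 TPM, against means of 75.7 and 96.8 TPM with the other mimics and 43.6 TPM with scrambled RNA. FAM3C2 is a near copy of FAM3C, so the share of each is uncertain. IRAK2, a kinase of innate immune signalling, was lower by 1.60 on the log2 scale against the other mimics (adjusted p = 0.00199 in limma).

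In the other direction, IGFBP5, a binding protein of insulin-like growth factors, measured 243, 151 and 95.6 TPM with the miR-150 mimic, against means of 34.3 and 50.9 TPM with miR-126 and miR-143 (1.87, adjusted p = 0.00362 in limma) and 127 TPM with scrambled RNA. KLC2, a kinesin light chain, and SLC35B2, a transporter of the sulfate donor into the Golgi, also had levels like scrambled RNA, at 37.3 and 83.3 TPM with the miR-150 mimic and 42.4 and 83.6 TPM with scrambled RNA, and were higher than with the other mimics by 0.979 and 0.999 on the log2 scale.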
